A study of Mus musculus with 2 samples.

Results

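The genes described here are 35 genes of cholesterol and fatty acid metabolism, which act in lipid synthesis and its regulation, efflux, uptake, storage and oxidation. They were taken from a list of symbols, and all 35 were found among the 32285 genes of the count matrices. The counts are from single-cell 3′ RNA sequencing of digested lung. The mice were C57BL/6 and expressed I73T mutant surfactant protein C (SP-C), made by alveolar type 2 (AT2) cells. Before digestion with collagenase D the lungs were lavaged and perfused, and red cells were lysed. One library is titled injured and one control, and both are from mutant mice. Per the protocols, a single oral tamoxifen dose of 175 mg/kg takes out a neo cassette and so raises mutant SP-C, corn oil is the vehicle, and the design sets 14 d post injury against steady state. The treatment tags contradict the titles: the injured library is tagged untreated, and the control library tamoxifen treated. The titles define the groups here. The labels do not say how many animals were used.

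Sterol regulatory element-binding proteins are held in the endoplasmic reticulum by SCAP and INSIG proteins, leave it when membrane sterol is low and switch on cholesterol and fatty acid synthesis. Oxysterols activate liver X receptors, which raise the exporters Abca1 and Abcg1 and the carrier Apoe. In the lung, alveolar macrophages clear surfactant lipid and need the nuclear receptor Pparg, and AT2 cells make lipid for surfactant.

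Promoters are shown because most cholesterol synthesis members were higher together in alveolar macrophage-like cells of the injured library. RefSeq entries (GRCm38.p6) existed in the table for 27 of 35 members and for 9 of 12 cholesterol synthesis members. The 250 bases before each start were searched on both strands for TCACNCCAC (a sterol regulatory element), CCAAT (the box bound by NF-Y) and GGGCGG (the GC box bound by Sp1). Matches are in capitals and do not overlap in the sequences printed, which run 5′ to 3′ on the gene's strand. Hmgcs1 is shown for its sterol regulatory element letters, Cyp51, Lss and Mvd for their ratios, and the droplet gene Cidec, lower in the injured library, for contrast.
Hmgcs1 (chr13:119690101-119690350, plus strand): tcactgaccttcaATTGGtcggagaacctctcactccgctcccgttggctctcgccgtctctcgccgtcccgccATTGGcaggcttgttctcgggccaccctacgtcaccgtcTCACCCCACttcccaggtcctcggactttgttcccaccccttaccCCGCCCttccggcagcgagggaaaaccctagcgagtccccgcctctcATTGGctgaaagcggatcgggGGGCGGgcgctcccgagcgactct
Cyp51 (chr5:4104698-4104947, minus strand): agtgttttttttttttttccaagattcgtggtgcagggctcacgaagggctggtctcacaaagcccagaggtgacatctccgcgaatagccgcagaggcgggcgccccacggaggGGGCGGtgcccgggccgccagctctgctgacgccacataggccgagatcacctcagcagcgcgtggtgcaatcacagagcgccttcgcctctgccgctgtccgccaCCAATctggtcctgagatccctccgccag
Lss (chr10:76531355-76531604, plus strand): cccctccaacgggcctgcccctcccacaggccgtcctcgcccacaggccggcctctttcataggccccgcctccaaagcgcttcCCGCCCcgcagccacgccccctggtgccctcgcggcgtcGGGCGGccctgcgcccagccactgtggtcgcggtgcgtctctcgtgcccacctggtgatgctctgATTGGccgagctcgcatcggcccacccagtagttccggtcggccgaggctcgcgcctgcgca
Mvd (chr8:122443423-122443672, minus strand): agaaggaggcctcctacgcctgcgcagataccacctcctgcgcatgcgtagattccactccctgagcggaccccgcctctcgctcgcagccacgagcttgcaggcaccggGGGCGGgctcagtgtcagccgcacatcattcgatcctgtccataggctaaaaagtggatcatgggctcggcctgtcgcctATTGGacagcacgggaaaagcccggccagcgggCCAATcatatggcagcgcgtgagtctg
Cidec (chr6:113435761-113436010, minus strand): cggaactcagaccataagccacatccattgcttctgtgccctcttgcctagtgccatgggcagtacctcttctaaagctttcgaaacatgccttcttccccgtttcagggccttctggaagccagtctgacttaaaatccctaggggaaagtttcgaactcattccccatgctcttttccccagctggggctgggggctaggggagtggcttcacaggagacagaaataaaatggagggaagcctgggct

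The sterol regulatory element letters began 137 bases before the Hmgcs1 start and were in no other member with an entry. They were in 1.05% of all 32851 promoters in the table. CCAAT and GGGCGG stood together in a promoter of all 9 cholesterol synthesis genes with an entry, and of all 3 sterol regulators. The pair was in 24.4% of the 8436 genes with an entry and at least 20 counts in alveolar macrophage-like cells. Of 5 fatty acid synthesis members with an entry 1 held the pair, and of 4 storage and lysosomal members 0 did. Of 3 efflux and transport members with an entry 1 held it, as did the uptake member Cd36 and 1 of 2 oxidation and nuclear receptor members. In all, 16 of the 27 members with an entry held the pair. A match is a stretch of letters and not a measure of binding.

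After filtering, 2302 injured cells with 19830004 UMIs and 2298 control cells with 16034531 UMIs remained, and 1 barcode sequence was found in both libraries. The cells fell into 24 clusters, formed without the members. Alveolar macrophage-like cells numbered 381 injured and 429 control, but in separate clusters: one held 283 injured cells and 2 control cells, another 1 injured cell and 313 control cells. A low-depth cluster was shared, with 97 injured and 114 control cells. The 14 alveolar macrophage markers, none at 0, summed to 30075 CPM in injured and 19790 CPM in control cells of the class, where CPM are UMIs per 1000000 UMIs of the class. C1q macrophage-like cells, named from complement C1q genes, numbered 302 injured and 5 control. They held 20284 CPM of the alveolar macrophage markers, with Fabp1 at 0, and 11458 CPM of the C1q macrophage markers.

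With 1 library per group there is no replicate error and no test. A gene with at least 20 counts over both sides is called higher or lower at a CPM ratio of 1.5-fold or more. Intervals after ratios are exact 95% intervals that cover counting error only.

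Over all cells, Scd1, Scd2, Fasn, Apoe and many cholesterol synthesis genes were higher in the injured library, and Acaa1b, Cidec, Pparg and Abcg1 were lower. Of the 35 members 14 were higher and 6 lower. Of all 14505 genes tested 20.8% were higher and 16.1% lower. In such sums, fewer cells of a type and less RNA per cell cannot be told apart. Of the 12 cholesterol synthesis members 6 were higher and 0 lower, with a median log2 ratio of 0.64 against 0.07 over all genes. Of the 7 fatty acid synthesis members 5 were higher, and the elongase Elovl6 was lower.

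**Figure D1:**
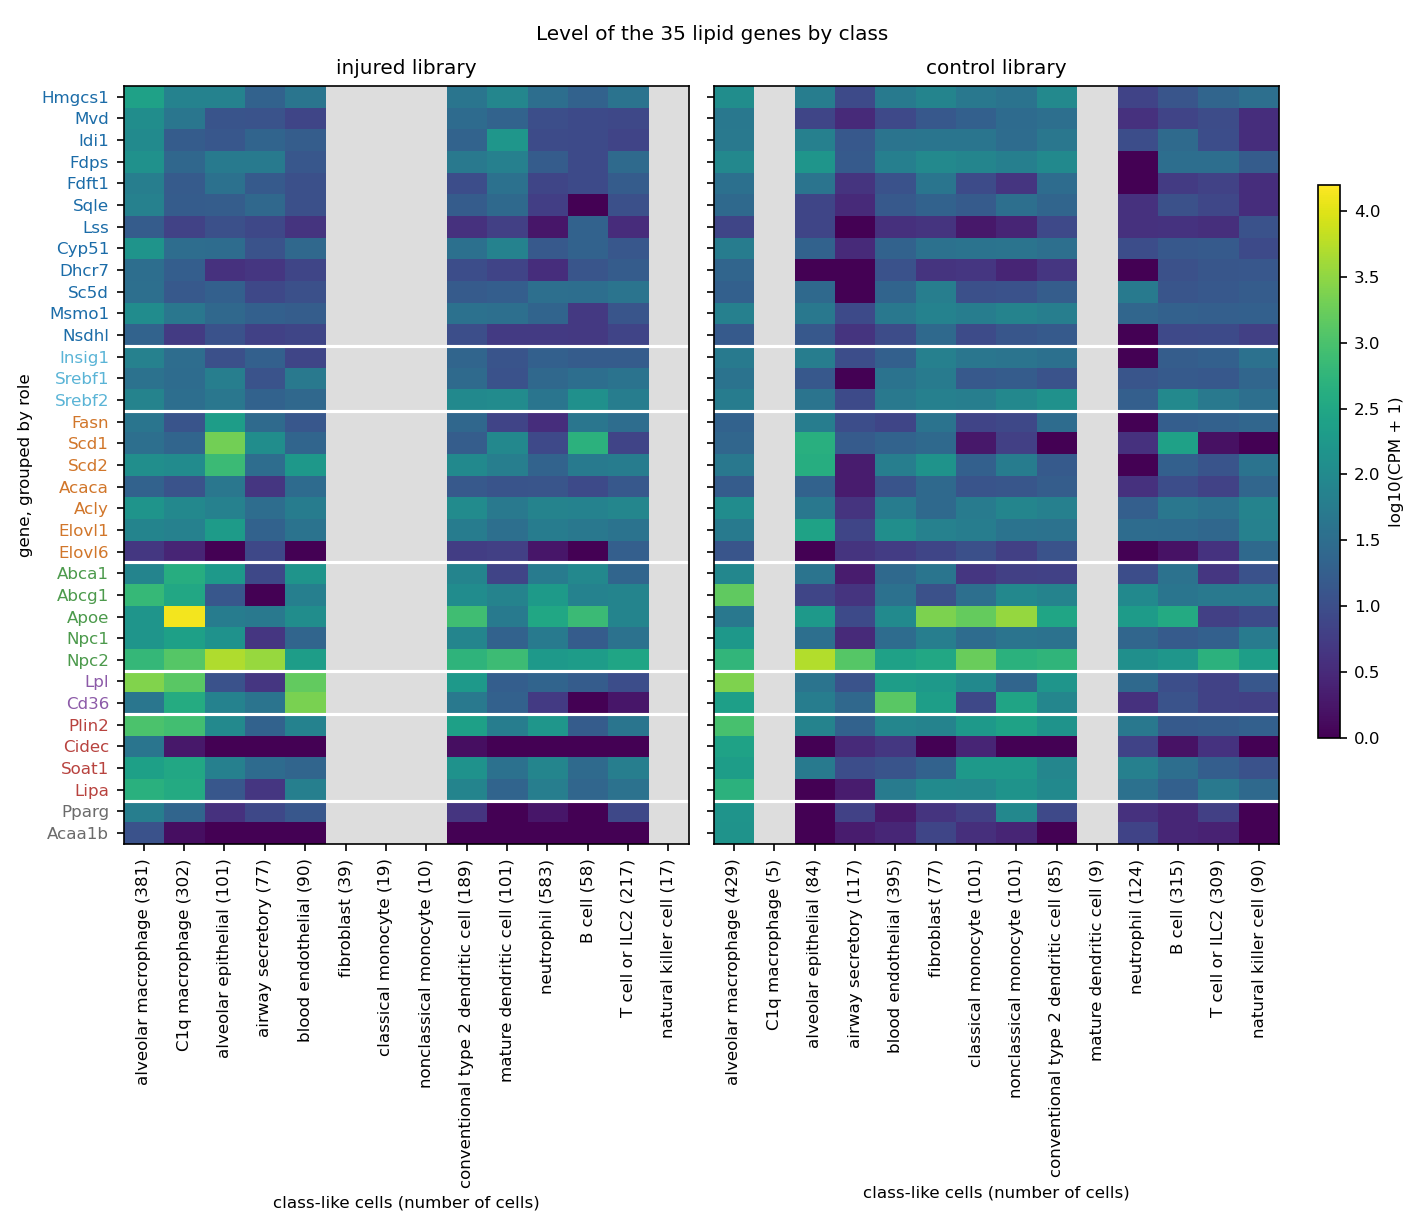
Level of the 35 genes, as log10(CPM + 1), by class in the injured library (left) and the control library (right), with the number of cells in parentheses and classes under 50 cells in grey. Cidec and Acaa1b are high in alveolar macrophage-like cells, Scd1 in alveolar epithelial-like cells and Apoe in injured C1q macrophage-like cells.

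Among classes of at least 50 cells, the alveolar macrophage-like class had the highest level of 18 members in the injured library and of 15 in the control library. The alveolar epithelial-like class led for 7 members in each. The leading class was the same in both libraries for 18 of 35 members.

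In alveolar macrophage-like cells, cholesterol synthesis genes were higher in the injured library, while Acaa1b, Cidec, Cd36, Pparg and Abcg1 were lower. Of the 35 members 13 were higher and 6 lower, where 12.5% of 10609 genes were higher and 21.2% lower. Of the 12 cholesterol synthesis members 9 were higher and 0 lower. Their median log2 ratio was 0.97, against -0.13 over all genes. Together they made up 1090 CPM in injured and 545 CPM in control cells, at median depths of 15936 and 15917 UMIs.

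Hmgcs1, which makes HMG-CoA at the head of the pathway, was at 251 CPM in injured cells, against 112 CPM in control cells (ratio 2.23, 2.04 to 2.45). Mvd, the last enzyme of the mevalonate steps, was at 113 CPM in injured cells, against 46.8 CPM in control cells (ratio 2.42). Idi1, the isomerase that follows it, had a ratio of 2.09 (1.82 to 2.40). These genes stand before squalene in the pathway. Sqle, the squalene epoxidase, was at 69.7 CPM in injured cells, against 26.1 CPM in control cells (ratio 2.67, 2.22 to 3.22). Lss, which closes the sterol rings, had 100 injured and 40 control counts and a ratio of 2.45 (1.68 to 3.62). Cyp51, which demethylates lanosterol, was at 148 CPM in injured cells, against 57.9 CPM in control cells (ratio 2.56, 2.26 to 2.90). Genes on both sides of squalene were thus higher. The squalene synthase Fdft1 and the late sterol enzymes Sc5d and Msmo1 had ratios of 1.82, 1.84 and 1.61. Fdps, the farnesyl diphosphate synthase, and the late enzymes Dhcr7 and Nsdhl had ratios of 1.48, 1.40 and 1.43 and did not reach 1.5-fold. With the level in B cell-like cells subtracted, the log2 ratio of Sc5d turned to -1.79, and nothing of the injured Lss and Fasn levels was left, which gives bounds of at most -2.82 and -2.71 with the injured side at the floor of 3 counts. The injured B cell levels subtracted rest on 5, 8 and 11 counts of Lss, Sc5d and Fasn in 58 cells.

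At equal depth the order was the same. After thinning to 1000 UMIs, 171 of 331 injured cells (51.7%, 46.1 to 57.2) had a UMI of any cholesterol synthesis member, against 132 of 369 control cells (35.8%, 30.9 to 40.9). Cells too shallow to thin, 50 injured and 60 control, were left out. For Hmgcs1 alone the thinned shares were 21.5% of injured and 12.5% of control cells, and the unthinned shares 69.6% and 50.8%. As a comparison class of lymphocytes, B cell-like cells had a UMI of any cholesterol synthesis member in 12.1% (injured) and 11.2% (control) of cells.

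**Figure D2:**
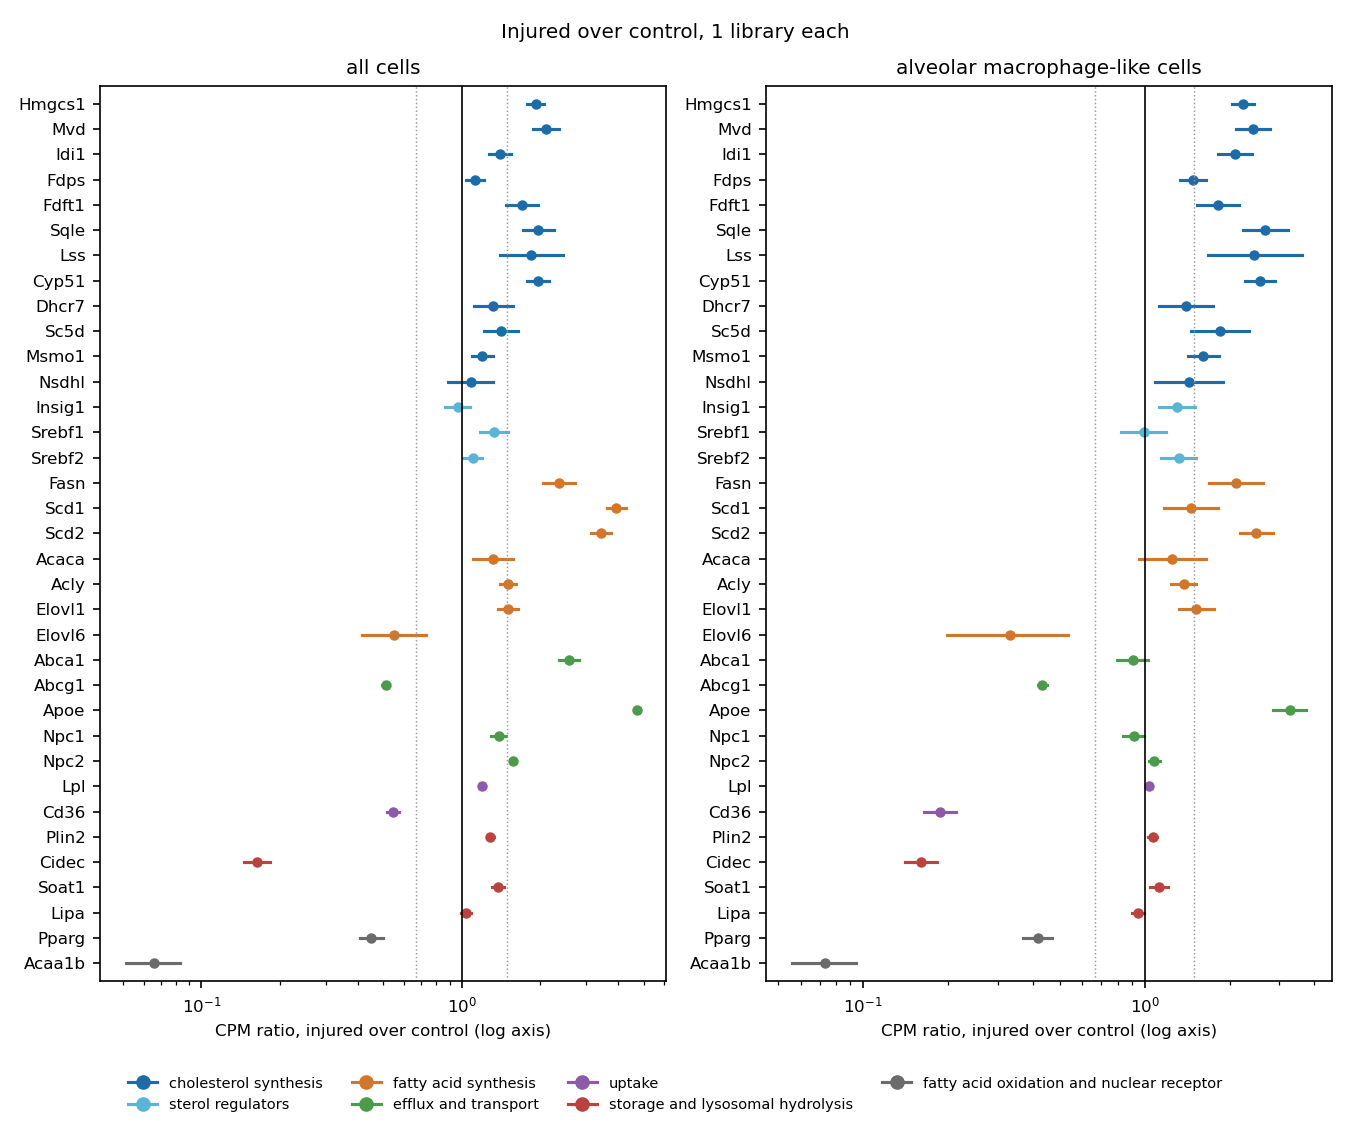
CPM ratio of injured over control (log axis) for the 35 genes in all cells and in alveolar macrophage-like cells, with points coloured by role, lines for exact 95% counting intervals and dotted lines at 1.5-fold. The 12 cholesterol synthesis genes lie above 1 in both panels, and Cidec and Acaa1b lie far below it.

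The sterol regulators did not reach 1.5-fold in the class. Insig1, which holds the regulatory proteins back, had a ratio of 1.30. Srebf2, the factor of cholesterol synthesis, had 1.32, and Srebf1, the factor of fatty acid synthesis, 0.991.

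Fatty acid synthesis was split, with 3 of 7 members higher and 1 lower. The desaturase Scd2 was at 119 CPM in injured cells, against 47.9 CPM in control cells (ratio 2.49, 2.17 to 2.85). Fasn, the fatty acid synthase, was at 42.2 CPM in injured cells, against 20.04 CPM in control cells (ratio 2.11, 1.70 to 2.63). Elovl1, an elongase of very long chains, reached 1.52. The desaturase Scd1, the citrate lyase Acly and the carboxylase Acaca had ratios of 1.46, 1.37 and 1.25, under the limit. Elovl6 was lower, with 24 injured and 71 control counts.

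The lowest ratios were those of a thiolase, a droplet gene and a fatty acid receptor, among members chosen with earlier results of these data known. Acaa1b, a peroxisomal thiolase, was at 10.4 CPM in injured cells, against 142 CPM in control cells (ratio 0.0730, 0.0558 to 0.0940). Cidec, which fuses lipid droplets, was at 42.6 CPM in injured cells, against 266 CPM in control cells (ratio 0.160, 0.140 to 0.182). Cd36, which takes up fatty acids and modified lipoproteins, was at 43.4 CPM in injured cells, against 232 CPM in control cells (ratio 0.187). Reads of Acaa1b could be split with its near copy Acaa1a, which was at 171 CPM in injured cells, against 194 CPM in control cells. Pparg was at 62.01 CPM in injured cells, against 149 CPM in control cells (ratio 0.417). The exporter Abcg1 was at 643 CPM in injured cells, against 1485 CPM in control cells (ratio 0.433, 0.417 to 0.449).

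Other lipid genes stayed within 1.5-fold in the class. Lpl, the lipoprotein lipase, was at 2493 CPM in injured cells, against 2409 CPM in control cells. The droplet coat Plin2 and the lysosomal lipase Lipa had ratios of 1.07 and 0.944. The esterifying enzyme Soat1, the exporter Abca1 and the lysosomal cholesterol carriers Npc1 and Npc2 had ratios of 1.12, 0.905, 0.913 and 1.08. Plin2 and Cidec, both droplet genes, thus differed in their ratios.

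Apoe was at 152 CPM in injured cells, against 46.4 CPM in control cells in the class (ratio 3.27, 2.86 to 3.74). B cell-like cells had 741 injured and 372 control CPM of Apoe, so none was left in the class with that level subtracted. T cell or ILC2-like cells had less, 78.3 injured and 5.23 control CPM. Whether the B cell level is background was not tested. The 12 C1q macrophage markers summed to 909 CPM in injured and 282 CPM in control cells of the class, with Folr2 at 0 in the control cells. Their part in the Apoe value was not tested. In the shared low-depth cluster alone Apoe was slightly lower, with a log2 ratio of -0.44.

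That low-depth cluster gave 15 members with enough counts, of which 2 were higher and 9 lower, where 16.8% of 2204 genes were higher and 29.3% lower. Hmgcs1 was at 186 CPM in injured cells, against 80.2 CPM in control cells there. Lpl was at 281 CPM in injured cells, against 1265 CPM in control cells and Plin2 at 563 CPM in injured cells, against 1185 CPM in control cells, so both were lower in this cluster though not in the class.

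Further genes of the pathways were taken from lists without the members. Of 9 further cholesterol synthesis genes 6 were higher and 1 lower in the alveolar macrophage-like class, with a median log2 ratio of 0.93. Hsd17b7, a sterol ketone reductase, was at 63.3 CPM in injured cells, against 13.5 CPM in control cells (ratio 4.68). The mevalonate pathway kinases Pmvk and Mvk had ratios of 3.03 and 2.23. Ggps1, which leads into protein prenylation, was lower at 0.498. Of 11 genes of sterol regulation and uptake 1 was higher, the cholesterol carrier Stard4, and 2 were lower. Of 8 genes of fatty acid synthesis and desaturation 3 were higher and 2 lower, among them the desaturase Fads1 at 2.12 and the elongase Elovl5 at 0.432. Of 17 genes of activation, storage and lipolysis 1 was higher, the acyl-CoA synthetase Acsl3, and 3 were lower, with the phosphatidate phosphatase Lpin1 at 89.3 CPM in injured cells, against 290.2 CPM in control cells. Of 13 fatty acid oxidation genes 1 was higher and 2 lower. Of 7 genes of efflux and oxysterols 3 were higher and 2 lower. Apoc2, a cofactor of lipoprotein lipase, had 188 injured and 4 control counts. Ch25h, which makes an oxysterol, had a ratio of 2.03, and the cholesteryl ester hydrolase Nceh1 one of 0.540.

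C1q macrophage-like cells were next set against alveolar macrophage-like cells of the injured library. They had more Apoe, Cd36 and Abca1 and less of every cholesterol synthesis member. Of the 35 members 5 were higher and 23 lower, where 14.7% of 10195 genes were higher and 17.6% lower. All 12 cholesterol synthesis members were lower, with a median log2 ratio of -1.94 against -0.08 over all genes. Median depths were 3134 UMIs in C1q macrophage-like and 15936 UMIs in alveolar macrophage-like cells.

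Apoe was at 13534 CPM in C1q macrophage-like and 152 CPM in alveolar macrophage-like cells (ratio 89.2, 83.6 to 95.2). Cd36 was at 376 CPM in C1q macrophage-like and 43.4 CPM in alveolar macrophage-like cells (ratio 8.67). Abca1 was at 412 CPM in C1q macrophage-like and 77.3 CPM in alveolar macrophage-like cells (ratio 5.32, 4.77 to 5.95). The lysosomal carriers Npc2 and Npc1 were higher as well, by 1.98 and 1.55. The efflux genes did not move as one, since Abcg1 was at 330.4 CPM in C1q macrophage-like and 643 CPM in alveolar macrophage-like cells.

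Among the synthesis genes, Idi1 was at 15.4 CPM in C1q macrophage-like and 103 CPM in alveolar macrophage-like cells. Fdps was at 24.2 CPM in C1q macrophage-like and 133 CPM in alveolar macrophage-like cells. Hmgcs1 had a ratio of 0.282, and Dhcr7, with the smallest difference of the 12, one of 0.540. Of the regulators, Insig1 and Srebf2 were lower at 0.435 and 0.439. Fasn was at 11.4 CPM in C1q macrophage-like and 42.2 CPM in alveolar macrophage-like cells, while Scd1, Scd2 and Elovl1 were within 1.5-fold. Cidec had 2 counts in C1q macrophage-like and 267 in alveolar macrophage-like cells, and Acaa1b 1 and 65. Pparg and Lpl were lower at 0.361 and 0.545, though Lpl was at a log2 ratio of 0.06 with each cell weighted the same. Plin2, Soat1 and Lipa were within 1.5-fold, so both classes carried droplet coat and lysosomal lipase transcripts.

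Of the 9 further synthesis genes 7 were lower and 0 higher in C1q macrophage-like cells, with Hsd17b7 at 15.4 CPM in C1q macrophage-like and 63.3 CPM in alveolar macrophage-like cells. The phospholipid transfer protein Pltp was at 253 CPM in C1q macrophage-like and 87.2 CPM in alveolar macrophage-like cells. After thinning, 25.1% of C1q macrophage-like cells (19.9 to 30.9) had a UMI of a cholesterol synthesis member, less than the 51.7% above.

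**Figure D3:**
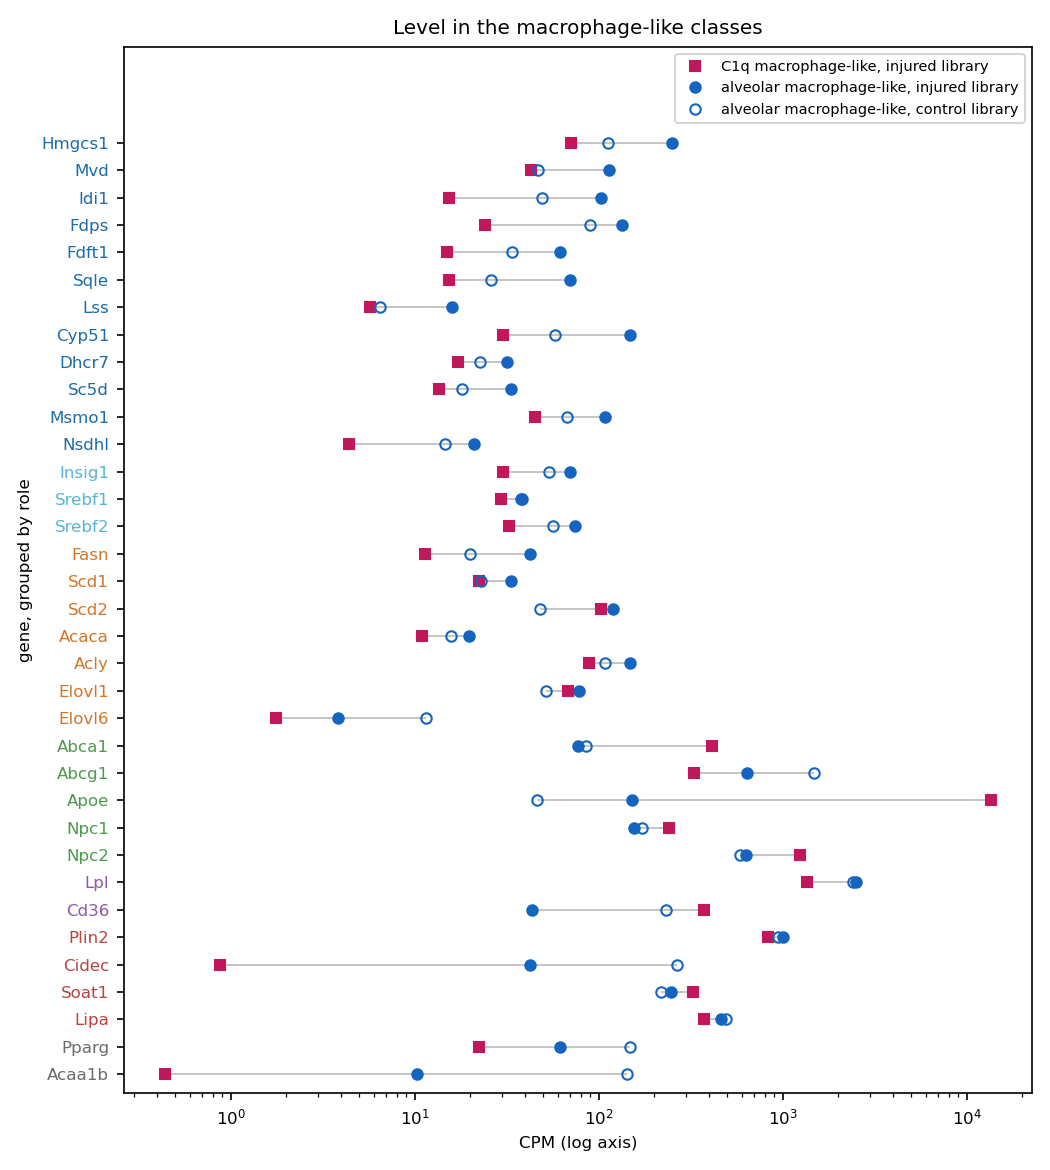
Level in CPM (log axis) of the 35 genes in injured C1q macrophage-like cells (squares) and in injured (filled circles) and control (open circles) alveolar macrophage-like cells. For each cholesterol synthesis gene the filled circle is highest and the square lowest, and for Apoe, Abca1 and Cd36 the square is highest.

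Alveolar epithelial-like cells had the highest Fasn, Scd1 and Scd2 levels in both libraries. Of 25 members with enough counts 8 were higher and 6 lower in injured cells, where 48.2% of 7720 genes were higher and 12.2% lower, so the share of higher members is below that of all genes. An AT1-like cluster gave 82 of 101 injured cells, and an AT2-like cluster 63 of 84 control cells. In the AT1-like cluster 12 AT1, 9 transitional epithelial and 8 AT2 markers were 3-fold above other cells, so it is not a pure AT1 group. Median depths were 8566 and 1216 UMIs in injured and control cells. The 12 AT2 markers summed to 11042 CPM in injured and 37288 CPM in control cells, and the part of this mix in the values was not tested.

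Scd1 was at 2037 CPM in injured cells, against 447 CPM in control cells (ratio 4.56, 3.58 to 5.90). Fasn was at 214 CPM in injured cells, against 60.03 CPM in control cells, on 9 control counts (ratio 3.57, 1.85 to 7.88). Scd2 had a ratio of 1.78 and Srebf1 one of 4.58, Srebf1 on 2 control counts. Of 8 cholesterol synthesis members tested, Sqle was higher, on 1 control count, and Idi1, Fdps and Msmo1 were lower. The intervals of Sqle and Msmo1 included 1. Fdps was not called lower in either cluster alone, with ratios of 0.844 in the AT2-like and 2.89 in the AT1-like cluster. B cell-like cells had 741 injured and 372 control CPM of Apoe, more than alveolar epithelial-like cells. Apoe was at 57.3 CPM in injured cells, against 180.1 CPM in control cells (ratio 0.318). In the AT1-like cluster alone its log2 ratio was 1.82, but on 72 injured counts and 1 control count, with a ratio interval of 0.614 to 141. Fdps, at 59 injured counts and 1 control count there, had an interval that also included 1. Npc2, which carries cholesterol out of lysosomes, was at 5059 CPM in injured cells, against 5170 CPM in control cells. Within each cluster Npc2 was higher, at 4730 CPM in injured cells, against 528 CPM in control cells of the AT1-like cluster (ratio 8.96, 6.37 to 13.03), and at 13174 CPM in injured cells, against 8490 CPM in control cells of the AT2-like cluster (ratio 1.55, 1.40 to 1.72). In the AT2-like cluster the 12 airway secretory markers summed to 78889 CPM in 19 injured cells and 9302 CPM in 63 control cells. Their part in the AT2-like values was not tested.

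In the AT1-like cluster alone 10 of 22 members were higher and 1 lower, where 22.9% and 21.7% of 7547 genes were. The control side was 21 cells, under the 50 cells set for a class. Of the higher members Fdps, Srebf1, Elovl1, Abca1, Apoe and Npc1 had intervals that included 1, as did the lower member Sc5d. Cd36 rested on 0 control counts and Fasn on 3. Scd1 was at 2093 CPM in injured cells, against 272 CPM in control cells there (ratio 7.70, 4.80 to 13.2). The AT2 markers of that cluster summed to 9568 CPM in injured and 1200 CPM in control cells, with 1 and 6 of 12 at 0, and median depths were 13678 and 955 UMIs. Their part in the Scd1 and Npc2 values was not tested. Scd2 was at 752 CPM in injured cells, against 912 CPM in control cells, so its direction in the class was not kept. In the AT2-like cluster Scd1 was at 637 CPM in injured cells, against 572 CPM in control cells, and Scd2 at 19.3 CPM in injured cells, against 45.8 CPM in control cells. Those Scd2 levels rested on 1 injured and 4 control counts, too few for a call. In both libraries Scd2 was thus far higher in the AT1-like than in the AT2-like cluster.

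Scd1 (chr19:44394455-44407879) and Scd2 (chr19:44293674-44306864, GRCm38) are neighbouring genes of one enzyme family, and they differed by class. B cell-like cells had 497 injured and 256 control CPM of Scd1, against 51.2 injured and 18.2 control CPM of Scd2. Endothelial-like cells had 173 injured and 62.6 control CPM of Scd2. Alveolar epithelial-like cells held 80.5% of the Scd1 counts of the injured library and 9.70% of those of the control library. B cell-like cells held 59.2% of the Scd1 counts of the control library. Without the alveolar epithelial-like cells the ratio over all cells was 0.901 for Scd1, in place of 3.93, and 2.58 for Scd2. The AT2 markers in B cell-like cells summed to 658 CPM in injured and 598 CPM in control cells, and their part in the B cell Scd1 level was not tested.

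**Figure D4:**
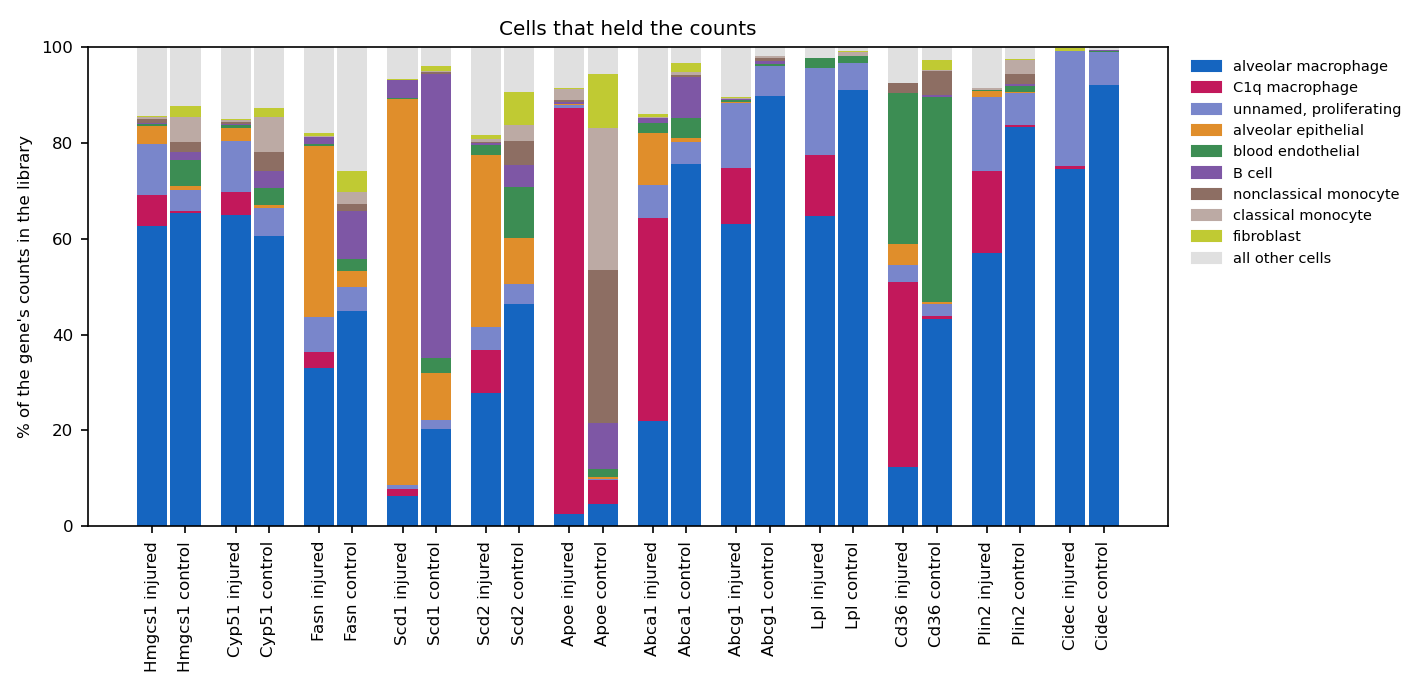
Share of each gene's counts held by cells of each class, in percent of the gene's counts in that library, with the injured bar left of the control bar. C1q macrophage-like cells hold most Apoe counts and alveolar epithelial-like cells most Scd1 counts in the injured library, and alveolar macrophage-like cells hold most Hmgcs1, Cyp51, Lpl and Cidec counts in both.

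Apoe (chr7:19696109-19699188, GRCm38), the lipoprotein ligand that carries cholesterol away, was at 1834 CPM in injured cells, against 388 CPM in control cells over the whole libraries (ratio 4.73). C1q macrophage-like cells held 84.7% of the injured counts. In the control library nonclassical and classical monocyte-like cells held 32.1% and 29.5%. Without C1q macrophage-like cells the ratio of Apoe was 0.859, and that of Abca1 1.68 in place of 2.58. Without alveolar macrophage-like cells the ratios of Abcg1, Pparg and Cd36 were 1.67, 0.945 and 0.758, none of them lower by 1.5-fold. Cidec was still lower at 0.478, but 86 of its remaining injured and 122 of its remaining control counts were in an unnamed proliferating cluster in which 6 alveolar macrophage markers were 3-fold above other cells. Hmgcs1 was still higher at 1.87, in a sum that also kept this proliferating cluster.

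In blood endothelial-like cells 6 of 23 members were higher and 7 lower, where 19.3% and 20% of 7731 genes were. Of 6 cholesterol synthesis members tested 4 were lower and 0 higher. These were Idi1, Fdps, Sc5d and Msmo1, on 5, 4, 3 and 5 injured counts. The intervals of Idi1 and Sc5d included 1. Lpl was at 1558 CPM in injured cells, against 219 CPM in control cells (ratio 7.13, 6.08 to 8.36), while B cell-like cells held 15.8 injured and 9.40 control CPM. Cd36 was at 2228 CPM in injured cells, against 1316 CPM in control cells. In conventional type 2 dendritic cell-like cells 11 of 30 were higher and 8 lower, where 30.3% and 12.4% of 8671 genes were. Median depths in this class were 11376 UMIs in injured and 2056 UMIs in control cells. There 6 of 11 cholesterol synthesis members were lower and 1 higher, with Hmgcs1 at 42.6 CPM in injured cells, against 95.6 CPM in control cells. Scd2 was at 97.5 CPM in injured cells, against 14.7 CPM in control cells, and Abca1 had 182 injured and 3 control counts. By these calls, most cholesterol synthesis members tested were lower in these classes, on few injured counts in endothelial-like cells. Abca1 and Scd2 were higher in both.

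In neutrophil-like cells 15 of 19 members were higher and 1 lower, where 52.8% and 9.74% of 6182 genes were. One of the 2 clusters of this class held 424 injured and 12 control cells, and the other 159 and 112. Plin2 was at 163 CPM in injured cells, against 47.5 CPM in control cells of the class, but in the second cluster at 44.4 CPM in injured and 48.9 CPM in control cells. In T cell or ILC2-like cells 17 of 29 were higher and 1 lower, where 38.6% and 5.33% of 8814 genes were. The T cell-like cluster gave 64 injured and 216 control cells of this class, and the cluster with ILC2 markers 153 and 93. All 6 fatty acid synthesis members tested there were higher, with Scd2 at 57.5 CPM in injured cells, against 11.5 CPM in control cells. Scd2 was at 39.5 injured and 11.02 control CPM in the T cell-like cluster, and at 63.96 injured and 12.7 control CPM in the other, so it was higher in each, though Fasn and Elovl1 were each within 1.5-fold in the cluster with ILC2 markers. Apoe was at 78.3 CPM in injured cells, against 5.23 CPM in control cells, and the C1q macrophage markers summed to 44.7 injured and 16.2 control CPM, whose part was not tested. In B cell-like cells 11 of 22 were higher and 3 lower, where 25.3% and 16.9% of 7170 genes were, and all 5 fatty acid synthesis members tested were higher. Of these, Acly and Elovl1 had intervals that included 1. The lower members Idi1, Fdps and Msmo1 rested on 2, 2 and 1 injured counts. In airway secretory-like cells 9 of 10 were higher and 0 lower, where 40.5% and 10.8% of 2804 genes were. Scd1 was at 112 CPM in injured cells, against 15.3 CPM in control cells (ratio 7.31, 4.04 to 14.1), and Npc2 at 3536 CPM in injured cells, against 1234 CPM in control cells. B cell-like cells held more Scd1, 497 injured and 256 control CPM. In the airway secretory-like cluster 4 AT2 markers were 3-fold above other cells, and their part in these values was not tested. Median depths there were 2395 UMIs in injured and 4987 UMIs in control cells.

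**Figure D5:**
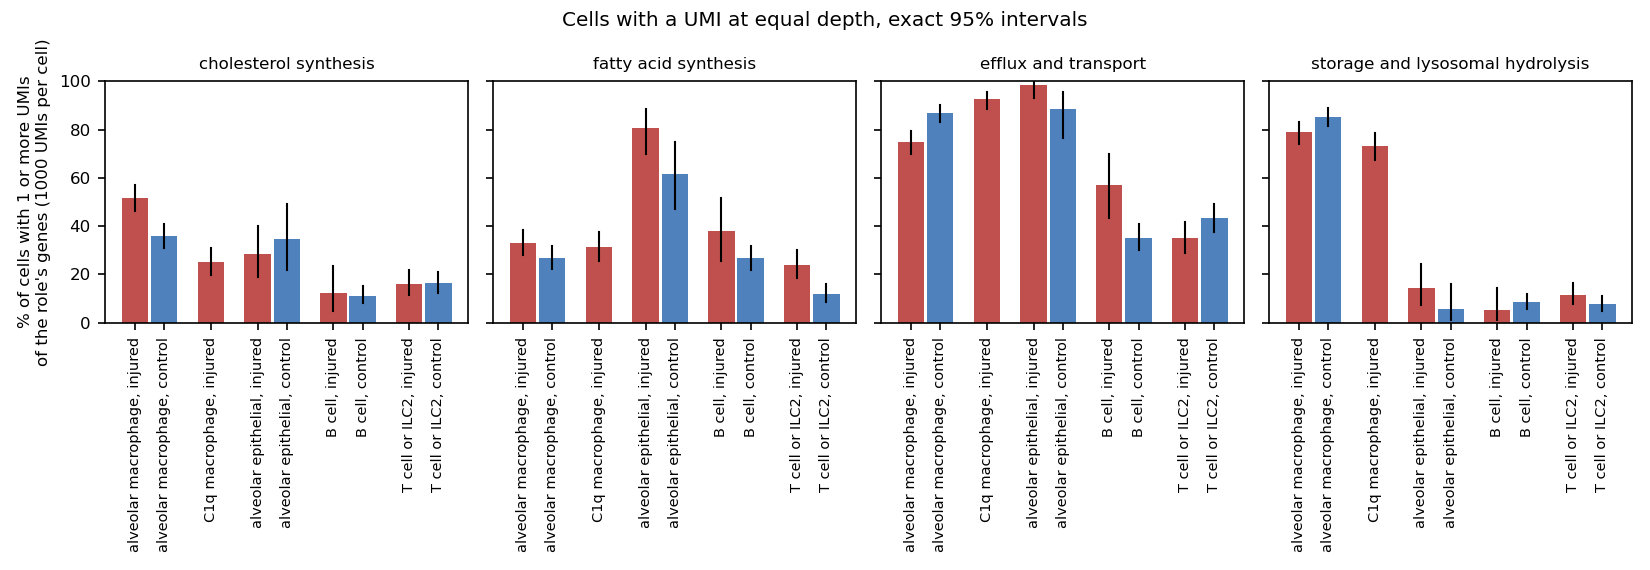
Share of cells with at least 1 UMI of a role's genes after thinning to 1000 UMIs per cell, with exact 95% intervals, for injured (red) and control (blue) cells of 5 classes. In the cholesterol synthesis panel alveolar macrophage-like cells stand highest (51.7% and 35.8%), and in the fatty acid synthesis panel alveolar epithelial-like cells do (80.5% and 61.5%).

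Smaller groups are given as levels only. The unnamed proliferating cluster of 77 injured and 32 control cells had 583 injured and 404 control CPM of the summed cholesterol synthesis members. In the 101 mature dendritic cell-like cells of the injured library Idi1 was at 159 CPM, above the 103 CPM of alveolar macrophage-like cells. Srebf2 was highest among injured classes in B cell-like cells (126 CPM) and in conventional type 2 dendritic cell-like cells of the control library (132 CPM), with intervals that overlapped those of the next class.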

How the data were processed

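The values the authors deposited are UMI counts, whole numbers for each gene in each barcode, from 10x 3′ v3 chemistry per the labels' protocols. The matrices name Cell Ranger 4.0.0 in their headers. Other tools in the submitters' processing notes have no stated role for these libraries.

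Barcodes with at least 500 UMIs, at least 200 genes and at most 15% mitochondrial UMIs were kept, which removed 356 of 2702 injured and 332 of 2674 control barcodes. In each library 44 cells that resembled simulated doublets were removed. Clustering used 2000 variable genes (members and wider lists left out), 30 principal components and the Leiden method at resolution 1. Clusters were called "-like" from 30 marker lists. AT1-like and AT2-like clusters form the alveolar epithelial-like class, and 2 clusters were joined as T cell or ILC2-like after they were seen. Tools were Python 3.11.15, leidenalg 0.10.2 and scipy 1.17.1.

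Counts were summed by library and class, for classes of at least 50 cells in both, and divided by the summed UMIs. Ratios carry no pseudocount, and their intervals are exact and conditional on the total. A count of 0 was bounded at 3 counts. The calls were run on simulated counts with planted changes and counting error only. Spread between cells or animals was not simulated, so this says nothing about replicate error. No p-value was computed, since each group is 1 library.

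The members and lists were chosen with earlier results of these data known. By rule, members with at least 50 counts were named with full values. Genes named on fewer counts, the Cyp51, Lss, Mvd and Cidec promoters and the results without a class were chosen after the values were seen. Some genes of the wider lists are not reported here by name. The alternatives changed filters, scaling, clustering and the cells included.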

Additional observations from a re-analysis of the deposited data

Results flagged for a closer look

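Apoe had ratios of opposite sign in separate classes. Its log2 ratio of injured over control was 1.71 in alveolar macrophage-like cells and -1.65 in alveolar epithelial-like cells. The difference was not tested. In the AT1-like cluster alone the log2 ratio was 1.82, on 1 control count with an interval of the ratio that includes 1, and in the low-depth alveolar macrophage-like cluster alone it was -0.436. B cell-like cells had more Apoe than either class, 741 CPM (injured) and 372 CPM (control). With that level subtracted nothing of Apoe was left in either class, so no ratio could be given. T cell or ILC2-like cells had less Apoe than B cell-like cells, 78.3 CPM (injured) and 5.23 CPM (control). The lymphocyte classes thus differed, and whether the B cell level is background was not tested.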

How the results depend on the processing

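No paired analysis was possible because each group is 1 library. Of the recomputed counts and medians 127 stayed close to the reported value and 17 moved. The cause of the changes was not tested. In alveolar macrophage-like cells 7 of 13 higher and 6 of 6 lower members kept their call wherever they were tested. The numbers were 4 of 5 and 16 of 23 for C1q against alveolar macrophage-like cells, 4 of 8 and 3 of 6 for alveolar epithelial-like cells, and 7 of 14 and 2 of 6 over all cells.

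With 10 CPM added to both sides the median log2 ratio of cholesterol synthesis was 0.375 over all cells and 0.678 in alveolar macrophage-like cells. With each cell weighted the same it was 0.418 over all cells, 8 members were higher in C1q against alveolar macrophage-like cells, and log2 ratios changed sign for Elovl1 over all cells (-0.103) and for Acaca (0.205) and Lpl (0.0571) in C1q against alveolar macrophage-like cells. With the level in B cell-like cells subtracted, 11 members were lower in alveolar macrophage-like cells, with Sc5d at -1.79 and, as bounds with the injured side at the floor, Lss at most -2.82 and Fasn at most -2.71.

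Some alternatives were added after the data were seen. The low-depth alveolar macrophage-like cluster alone had 2 higher members, with Apoe at -0.436. Over all cells, 2 members were lower without alveolar macrophage-like cells, with Abcg1 at 0.742. Scd1 was at -0.15 without alveolar epithelial-like cells, and Apoe at -0.219 without C1q macrophage-like cells. The AT1-like cluster alone had 1 lower member, with Scd2 at -0.277 and, on 1 control count each, Fdps at 1.53 and Apoe at 1.82. Sqle in alveolar epithelial-like cells had no control level in that cluster or after the B cell subtraction, so no direction could be given. The AT2-like cluster alone had 1 higher and 2 lower members.

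In alveolar epithelial-like cells a minimum of 100 counts gave 5 higher and 1 lower members. A mitochondrial limit of 25% gave 2 higher members and Scd2 at -1.39. Keeping doublets gave 0 higher and 3 lower with Scd2 at -2, and allowing members among the variable genes gave 0 higher and 3 lower with Scd2 at -1.94. Under these 3 settings the class held 49, 44 and 44 injured cells, in place of 101. Resolution 0.5 gave no alveolar epithelial-like value.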
